A study of Mus musculus with 16 samples.

Results

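The replication-dependent histone genes were taken as the protein-coding genes of the GENCODE vM21 annotation of GRCm38 whose symbol starts with Hist1h, Hist2h, Hist3h or Hist4h. The annotation held 67 of them. A deposited value existed for 65 of the 67, among 47311 genes with a value in all. The values come from bulk RNA-seq of 16 tumours of E0771-luciferase cells, a mouse mammary cancer line marked with luciferase. The cells (250000 per mouse, in 25% matrigel) were placed in mammary gland 4 of female C57BL/6J mice. All mice ate the same high-fat diet, with 60% of its energy as fat, between weeks 8 and 26 of age. One group of 8 mice was given anti-PD-1, an antibody that blocks an inhibitory receptor of T cells, and the other 8 were given an IgG2a isotype control. Both groups received 200 ug intraperitoneally from day 3 after the cells, at intervals of 3 days, and tumours were taken on day 21. Each tumour has its own animal number, so replicates are separate mice. The line grows from injected cells, and the tissue also holds host cells, so a level here is a level of the whole tumour.

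Replication-dependent histone genes encode the core histones H2A, H2B, H3 and H4 and the linker histone H1 that package newly copied DNA. Their mRNAs are made mostly in S phase and, unlike other mRNAs, end after a conserved stem-loop in place of a poly(A) tail. The stem-loop is bound by the protein encoded by Slbp, and transcription is driven by the factor encoded by Npat. Replacement histones such as H2afz and H3f3b are made throughout the cell cycle from ordinary polyadenylated mRNAs. Some genes of the replication-dependent clusters are also known to give polyadenylated transcripts in cells that have left the cycle. The libraries were enriched with oligo-dT beads, which capture RNA through a poly(A) tail.

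Of the 16 tumours, 3 stood apart before any histone gene was considered. IgG2a replicate 7 had an S phase score (mean log2 CPM of 30 S phase genes, CPM being reads scaled to library size) 1.08 below the median tumour, while the other 15 lay between -0.09 and 0.19 of it. Its mean log2 CPM was 7.34 above the median tumour for adipocyte markers, 6.48 for erythroid and 5.12 for epithelial markers. It was 3.57 above for endothelial, 2.52 for fibroblast and 1.94 for macrophage markers. The highest of the other 15 was 2.87 above for the epithelial and 1.62 above for the fibroblast markers. IgG2a replicate 3 was 11.78 above the median tumour in skeletal muscle markers. Anti-PD-1 replicate 6 had 38993 transcripts with reads, against 47997 to 55476 in the other 15. Depth was 59036535 to 82591064 estimated reads per tumour. Of the epithelial markers, Krt8 was present in all 16 tumours (33.4 to 75.9 TPM, a level per transcript length). Epcam and Cdh1 had reads in all 16 but were high in 1 tumour: Epcam was at 29.6 TPM in IgG2a replicate 7 and at a median of 1.14 TPM in the other 15, and Cdh1 at 14.5 and 0.456 TPM. Krt19 and Cldn7 had reads in 15 tumours and Cldn3 in 13. Whether the epithelial markers of IgG2a replicate 7 came from carcinoma cells or from other epithelium was not tested.

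The 67 genes lie in 4 clusters. The Hist1 cluster on chromosome 13 (GRCm38 21715763 to 23934851) holds 54 of them, the Hist2 cluster on chromosome 3 (96219865 to 96270132) 10, the Hist3 cluster on chromosome 11 (58948920 to 58956830) 2, and chromosome 6 holds Hist4h4 alone (136801553 to 136804415). By product, the 65 measured genes comprise 6 for H1, 18 for H2A, 16 for H2B, 12 for H3 and 13 for H4. Hist1h2bh and Hist1h2bm, both H2B genes, were the 2 with no value.

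The stem-loop is shown because it separates the mRNAs that end there from those that run on to a poly(A) signal. A 16-base motif with a 6-base stem and a 4-base loop was searched as a pattern that fixed some bases and left others free. It was found in the vM21 transcripts of 46 of the 67 genes, in 8 forms. The forms follow, with the loop in capitals. The first was in 26 genes of H1, H2A, H2B and H3, and the second in 7 genes of H4.
Form 1: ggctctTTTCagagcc
Form 2: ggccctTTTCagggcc
Form 3: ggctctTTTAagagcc
Form 4: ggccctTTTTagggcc
Form 5: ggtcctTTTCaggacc
Form 6: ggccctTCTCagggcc
Form 7: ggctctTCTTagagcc
Form 8: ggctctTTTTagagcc
Form 3 was in 6 genes of H1, H2B and H3. Forms 4 and 5 were in 2 H4 genes each, form 6 in Hist1h4a, form 7 in the H3 gene Hist1h3g and form 8 in the H2A gene Hist2h2ac. The search pattern fixed the first 2 and last 2 bases, the 2 stem bases on each side of the loop, and loop bases 1 and 3. These bases are therefore the same in every form. The H4 forms differed from the others within the stem. Of all measured and annotated transcripts, 68 (0.0595%) held the motif.

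Where the annotated transcript ended relative to the stem-loop differed among the members. The 65 genes were measured through 73 transcripts, of which 52 had the same length in the deposited tables as in vM21. Of these 52, 12 transcripts of 11 genes ran over 100 bases past the stem-loop, and 9 of those 12 had the poly(A) signal AATAAA in their last 40 bases. A further 17 transcripts ended within 100 bases of the stem-loop, and none of the 17 had AATAAA there. No stem-loop was found in 23 transcript models, of which 4 had AATAAA near the end. Some of these models are short, such as Hist1h4k (312 bases), Hist1h2bl (381) and Hist1h2ai (393). Absence from a model therefore does not show that the gene lacks a stem-loop. The 12 long transcripts took 57.8% of the reads of all members, and the 17 that end within 100 bases of the stem-loop 10.4%. The 23 models without a stem-loop took 5.66% and the 21 of another length 26.2%. Most of the first share belonged to 1 gene: without Hist1h1c the 4 shares were 24.5, 18.5, 10.1 and 46.9% in that order. These are reads assigned to models, and where the RNA itself ended was not measured.

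The last 30 bases of 4 long models are given as examples of ends with and without the signal, which is in capitals. Hist1h1c runs 840 bases past its stem-loop, Hist1h4j 385 and Hist3h2a 1643, while the single model of Hist2h2be, 2620 bases long, held no stem-loop.
Hist1h1c: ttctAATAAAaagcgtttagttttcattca
Hist2h2be: ttattattAATAAAgttaccgattagtttc
Hist1h4j: cggatgcAATAAAattctgAATAAAactgc
Hist3h2a: aaataagagtacgtgtataacataagctac
The signal of Hist3h2a lay within the last 40 bases of its model but outside the 30 shown. Hist2h4 ran 1257 bases past the stem-loop and Hist4h4 2445, and both were low (0.794 ± 0.347 and 0.180 ± 0.0802 TPM, SD, n = 16), so a long model did not go with a high level in every gene. The other members with most reads on a long model were Hist1h3e, Hist1h4a, Hist1h4i, Hist2h3c1, Hist2h3c2 and Hist3h2ba, at mean levels of 0.0517 to 2.31 TPM.

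Most replication-dependent histone genes were captured at low levels. Together they took 0.0166% of a tumour's reads on average (0.0115 to 0.0300%). Their summed TPM was 313 ± 98.5 (SD, n = 16), against 3457 ± 473 for 11 replacement histone genes, a mean ratio within tumours of 11.8 ± 2.99. The median member was at 1.58 TPM and the median protein-coding gene with reads at 5.91 TPM. The median was passed by 6 members. Reads were found in all 16 tumours for 36 members and in none for 2, Hist1h2aa and Hist1h2ba. Hist1h1t, a linker histone of the testis, was at 0.0115 TPM, with reads in 2 tumours.

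**Figure D1:**
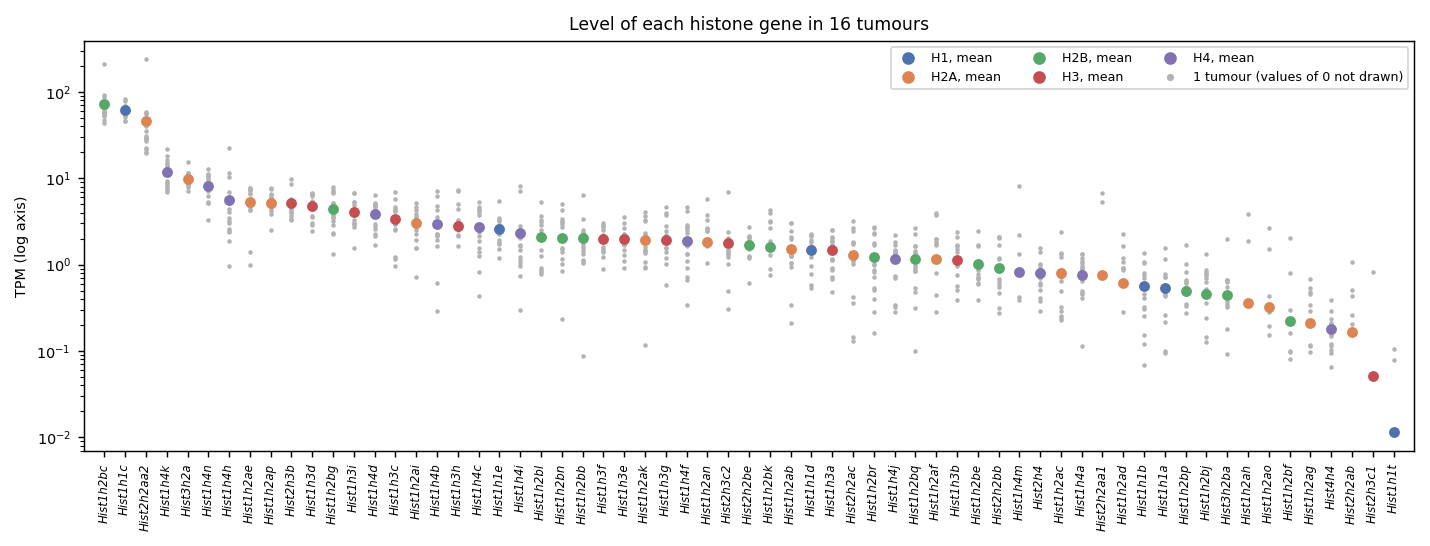
Level in TPM (log axis) of the 63 histone genes with reads, ordered by mean; coloured points are means over 16 tumours and grey points single tumours, with values of 0 not drawn. Hist1h2bc, Hist1h1c and Hist2h2aa2 lie above 40 TPM, and 22 of the 65 members lie under 1 TPM.

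Hist1h2bc, Hist1h1c and Hist2h2aa2 made up 57.7% of the summed TPM. The H2B gene Hist1h2bc (chromosome 13, 23684199 to 23692908, plus strand) was at 72.8 ± 39.6 TPM (SD, n = 16). The H1 gene Hist1h1c (chromosome 13, 23738808 to 23740367, plus strand) was at 61.6 ± 10.4 TPM, and being the longest of these 3 it took 44.1% of all member reads. The H2A gene Hist2h2aa2 (chromosome 3, 96239749 to 96240276, minus strand) was at 46.3 ± 52.7 TPM. After these came a gap of 3.96-fold to the H4 gene Hist1h4k at 11.7 ± 4.38 TPM. Next were the H2A gene Hist3h2a at 9.87 ± 1.96, the H4 genes Hist1h4n at 8.19 ± 2.71 and Hist1h4h at 5.63 ± 5.33, the H2A genes Hist1h2ae at 5.26 ± 1.99 and Hist1h2ap at 5.12 ± 1.91, and the H3 gene Hist2h3b at 5.12 ± 1.77 TPM. Among neighbours in this order from Hist1h4k down, the gap in means was smaller than their SD in each case.

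TPM of the shortest members depends on the length correction. The authors' effective length was the model length less 249 bases in all but 1 member model, so a short mRNA is divided by a small number. Hist1h4k, 312 bases long, had an effective length of 63.4 bases, and its 11.7 TPM came from 47.0 reads per tumour. By reads the order was Hist1h1c (5008 per tumour), Hist1h2bc (2192), Hist3h2a (1162), Hist2h2aa2 (799) and Hist2h2be (242), while 14 members averaged under 10 reads and 45 between 10 and 100.

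By class, H2B genes summed to 92.5 ± 39.5 TPM, H2A genes to 80.4 ± 51.3, H1 genes to 66.7 ± 9.81, H4 genes to 43.0 ± 10.2 and H3 genes to 30.5 ± 6.16 (SD, n = 16). The H2A and H2B sums rested on Hist2h2aa2 and Hist1h2bc. Across members of a class the medians were closer, from 1.01 TPM for H1 to 2.31 TPM for H4. By cluster, Hist1 summed to 244 ± 45.4 TPM, Hist2 to 58.8 ± 53.2, Hist3 to 10.3 ± 2.29 and Hist4h4 to 0.180 ± 0.0802 TPM, so the Hist1 cluster held 77.9% of the total.

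Classes differed in how level was spread over their members. Of the H1 genes, Hist1h1c was followed by Hist1h1e at 2.57 ± 1.03 TPM and Hist1h1d at 1.46 ± 0.544, while Hist1h1b, at 0.561 ± 0.374, and Hist1h1a, at 0.542 ± 0.403, were lower. H1 is the linker histone that sits between nucleosomes, and these 5 genes encode its somatic forms. Of the H3 genes, 11 of 12 passed 1 TPM: Hist2h3b and Hist1h3d (4.78 ± 1.36) led, Hist1h3i (4.09 ± 1.42) and Hist1h3c (3.38 ± 1.64) followed, and Hist2h3c1 was the exception at 0.0517 TPM. The H3 genes were thus more alike in level than those of H2A, which ran from 0 to 46.3 TPM, with 10 of 18 over 1 TPM. Of the H2B genes, 10 of 16 were over 1 TPM, and after Hist1h2bc the highest was Hist1h2bg at 4.36 ± 1.96 TPM. Of the H4 genes, which encode the same protein, 9 of 13 were over 1 TPM, and the lowest was Hist4h4.

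Near-identical copies limit what a single member's value means. Over windows of 31 bases in the vM21 transcripts, the median member shared all but 38.1% of its sequence with another gene, and 14 of 65 members had under 10% unique windows. Hist2h2aa2 had none: its whole sequence is also in its copy Hist2h2aa1, to which reads were assigned in 2 tumours only (5.29 TPM in anti-PD-1 replicate 1 and 6.73 in anti-PD-1 replicate 7). Together the copies summed to 47.0 ± 52.5 TPM. Hist1h1c was 88.6% unique, Hist1h2bc 66.6%, Hist3h2a 67.9% and Hist2h2be 97.7%. For models deposited at another length these shares describe the vM21 transcript and not the model that took the reads. Hist1h2bc is one of these, with 736 bases deposited where vM21 has 1156. Estimated reads were not whole numbers in at least 1 tumour for 55 of 65 members, as division of reads among similar transcripts gives. The libraries do not keep strand, so Hist2h2aa2 also cannot be told apart from its antisense partner Gm20632, and Hist3h2a lies within the span of Trim17 on the same strand.

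Most H2A and H2B genes of the Hist1 cluster stand head to head and share 1 promoter region. Of 12 such pairs (11 in that cluster, and Hist2h2ac with Hist2h2be), with start sites 176 to 306 bases apart, H2B was the higher by mean TPM in 6 and H2A in 5, and both were 0 in the pair Hist1h2ba and Hist1h2aa. In 10 of the 11 pairs with reads the levels of the partners were within 5-fold. Most members lay at similar low levels and unpaired members were not compared, so this count does not show linked levels. The exception was Hist1h2ac at 0.792 ± 0.569 TPM beside Hist1h2bc at 72.8 TPM, a ratio of 91.8 with start sites 251 bases apart. Of the other pairs with H2B the higher, the largest ratio was 4.44, for Hist1h2bk over Hist1h2ah. Among those with H2A the higher, Hist1h2ap was at 5.12 TPM beside Hist1h2br at 1.23 TPM. The deposited model of Hist1h2ac was 476 bases long where vM21 has 2482, and that of Hist1h2bc 736 where vM21 has 1156, so reads beyond the deposited models are not in these values.

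The region between Hist1h2ac and Hist1h2bc is shown because 1 stretch serves the most unequal pair. The 250 bases before the RefSeq start sites of Hist1h1c, Hist2h2aa2 and Hist1h4k are shown for 2 leading members and for an H4 gene. Sequences are from RefSeq (GRCm38.p6), with 3 motifs in capitals on either strand. The motifs are the box CCAAT, which on the other strand reads ATTGG, the TATA box written as TATAAA, and the octamer ATTTGCAT, which on the other strand reads ATGCAAAT.
Hist1h2ac (chr13:23683960-23684209, minus strand): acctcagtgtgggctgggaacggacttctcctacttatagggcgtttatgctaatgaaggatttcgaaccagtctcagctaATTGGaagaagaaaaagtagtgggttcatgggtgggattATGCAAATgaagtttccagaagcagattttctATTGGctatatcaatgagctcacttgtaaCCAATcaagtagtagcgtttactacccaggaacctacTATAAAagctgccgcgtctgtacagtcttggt
Hist1h1c (chr13:23738557-23738806, plus strand): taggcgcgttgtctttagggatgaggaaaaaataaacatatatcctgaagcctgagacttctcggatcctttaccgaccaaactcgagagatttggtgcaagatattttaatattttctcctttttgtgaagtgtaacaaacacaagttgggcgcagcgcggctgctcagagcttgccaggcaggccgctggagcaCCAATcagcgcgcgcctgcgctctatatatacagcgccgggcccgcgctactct
Hist2h2aa2 (chr3:96240375-96240624, minus strand): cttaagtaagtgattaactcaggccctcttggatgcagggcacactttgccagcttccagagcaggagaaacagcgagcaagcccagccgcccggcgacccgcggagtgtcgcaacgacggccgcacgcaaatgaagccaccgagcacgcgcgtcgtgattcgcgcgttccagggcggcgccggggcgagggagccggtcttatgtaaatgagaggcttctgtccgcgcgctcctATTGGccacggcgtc
Hist1h4k (chr13:21750554-21750803, minus strand): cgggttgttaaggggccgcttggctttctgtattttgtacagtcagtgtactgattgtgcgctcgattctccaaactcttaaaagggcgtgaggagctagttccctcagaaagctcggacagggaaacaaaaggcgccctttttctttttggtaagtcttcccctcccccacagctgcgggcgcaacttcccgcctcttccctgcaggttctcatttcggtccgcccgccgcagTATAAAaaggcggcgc
The Hist1h2ac stretch held 3 CCAAT, 1 TATAAA and 1 ATTTGCAT, and that of Hist1h1c 1 CCAAT. That of Hist2h2aa2 held 1 CCAAT and that of Hist1h4k 1 TATAAA. The Hist2h2aa2 stretch stops at 96240375, short of the vM21 start of the gene at 96240276, so its count leaves out the bases between. With 50 bases after the RefSeq start added, Hist2h2aa2 had 2 CCAAT and 0 TATAAA. The same window of its copy Hist2h2aa1 had 2 CCAAT and 1 TATAAA.

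RefSeq promoters of 300 bases, 250 before to 50 after the start, were matched for 60 of the 67 genes. CCAAT was in 85% of the 60 and in 37.4% of all 32851 promoters, on either strand. It was in all 6 H1, 17 H2A, 15 H2B and 10 H3 promoters matched, and in 3 of 12 for H4. TATAAA was in 58.3% of the 60 and 13.6% of all, and the octamer ATTTGCAT in 21.7% and 1.74%. The octamer was in 7 of 17 H2A and 6 of 15 H2B promoters and in none of the other 3 classes. Each motif was searched on its own, so overlapping matches counted for both, and a match describes these letters only.

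Across tumours the summed level was narrow in all but 1. The total lay between 232 and 365 TPM in 15 tumours and was 661 TPM in IgG2a replicate 7. In bulk tissue, fewer cells of a type and less RNA per cell cannot be told apart. In that tumour Hist2h2aa2 was at 238 TPM (19.4 to 58.3 in the other 15) and Hist1h2bc at 212 TPM (43.3 to 93.2). Hist1h1c, at 79.1 TPM, was within the range of the other 15 (45.5 to 83.5). The 62 members outside the leading 3 summed to 132 TPM there, within the 119 to 172 TPM of the other tumours. Replacement histone genes summed to 2142 TPM in IgG2a replicate 7, below the 2803 to 4343 TPM of the rest, which gave a ratio to the members of 3.24 against 7.68 to 16.4.

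**Figure D2:**
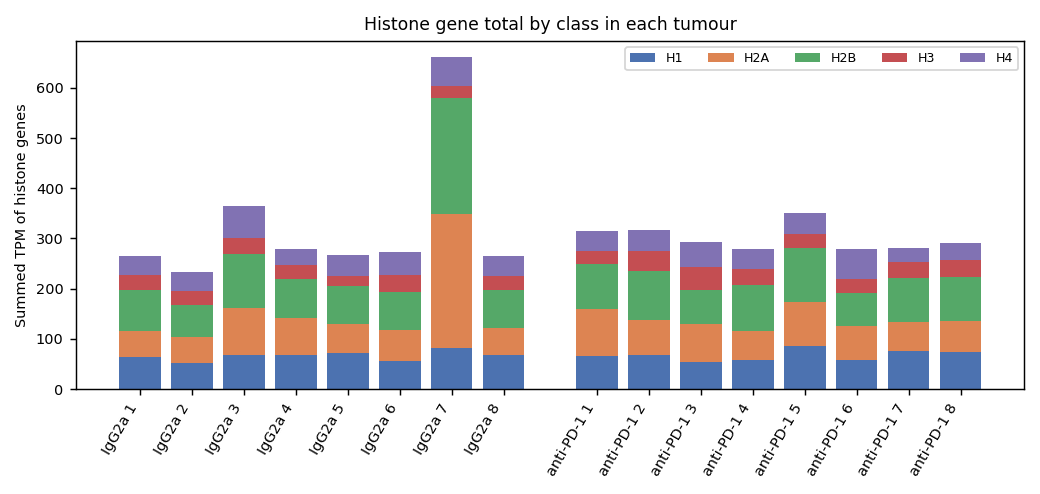
Summed TPM of the histone genes in each tumour, stacked by class (axis from 0). The IgG2a replicate 7 bar reaches 661 TPM through its H2A and H2B parts, and the other 15 bars end between 232 and 365 TPM.

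In IgG2a replicate 7 members lay on both sides of the other 15 tumours, as genes at large did. Of 47 members that passed the filter on low counts, 6 were above all other 15 tumours in CPM. This was a smaller share than the 30.7% of all 16154 genes tested. The 6 were Hist1h2bc, Hist2h2aa2, Hist1h4h, Hist2h3c2, Hist2h2be and Hist1h2be. A further 12 were below all other 15, a share near the 27.1% of all genes. Among the 12, Hist1h2ap was at 0 CPM (0.520 to 1.66 in the others), Hist1h3b at 0 (0.118 to 0.759), Hist1h2bl at 0 (0.0855 to 0.545) and Hist1h2ae at 0.193 (0.434 to 1.55). Hist1h2ap shares 93.4% of its windows with Hist1h2ao, which was at 0.548 CPM there and at most 0.268 in the others. Hist1h4n, also below all others (0.532 CPM), shares 85.3% with Hist1h4m, at 1.13 CPM there and at most 0.293 elsewhere. How reads were divided between such copies was not tested. Markers of adipocytes, red cells, epithelium, endothelium, fibroblasts and macrophages were high in the same tumour, and their part in these values was not tested.

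Single members varied more between tumours than genes at large. The median SD of log2 CPM was 0.91 over the 47 members and 0.45 over all genes tested, or 0.67 and 0.38 without IgG2a replicate 7. Members also had fewer reads, with a median of 25.8 per tumour over all 65, and the part of low counts in this spread was not tested. Hist1h1c, with 5008 reads, had an SD of 0.30, and Hist2h2be and Hist3h2a had 0.33 and 0.36. Hist1h2bk, with 21.7 reads, had 1.96.

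Anti-PD-1 was compared with IgG2a to see whether checkpoint blockade changed the level of these genes. No histone gene differed between the groups by edgeR's quasi-likelihood test with Benjamini-Hochberg adjustment, where the smallest adjusted p was 0.434. The same was true of all 16154 genes tested (0% called). Of the 65 members, 47 passed the filter (5 H1, 9 H2A, 10 H2B, 11 H3, 12 H4) and 18 were too low to test. At an unadjusted p under 0.05, 2 of the 47 members, both higher under anti-PD-1, and 11.4% of all genes (3.47% higher) were found. DESeq2 called 4 genes, none of them a member. No member had groups that did not overlap, against 0.0124% of all genes.

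Summed TPM was 301 ± 24.8 under anti-PD-1 (lowest 279, median 292, highest 350) and 326 ± 141 under IgG2a (lowest 232, median 269, highest 661; SD, n = 8 each). The groups overlapped, and the order of the means turned on 1 tumour. Without replicate 7 the IgG2a mean was 278 ± 41.2 TPM. In summed CPM the means were 169 and 166.

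Hist1h1c ranged from 56.3 to 107 CPM under anti-PD-1 (median 75.8) and from 50.8 to 94.2 under IgG2a (median 65.4). The groups overlapped over most of their range. The log2 fold change was 0.14 ± 0.15 (SE), with a 95% interval of -0.18 to 0.46. Hist1h2bc ranged from 21.5 to 40.1 CPM (median 30.1) under anti-PD-1 and from 17.8 to 94.0 (median 23.3) under IgG2a. Its highest value was in the control tumour IgG2a replicate 7, and 7 of 8 anti-PD-1 tumours lay above the IgG2a median. The log2 fold change was -0.16 ± 0.31 with that tumour and 0.25 without it.

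Hist2h2aa2 ranged from 4.74 to 14.8 CPM under anti-PD-1 (median 7.45) and from 4.70 to 60.3 under IgG2a (median 7.01). It too was highest in IgG2a replicate 7, and the medians were close. The log2 fold change was -0.61 ± 0.52 with that tumour and 0.26 without it. Hist3h2a ranged from 12.8 to 28.5 CPM (median 16.1) under anti-PD-1 and from 11.5 to 26.5 (median 16.4) under IgG2a. The log2 fold change was 0.08 ± 0.19, and -0.05 without anti-PD-1 replicate 6, its highest tumour.

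**Figure D3:**
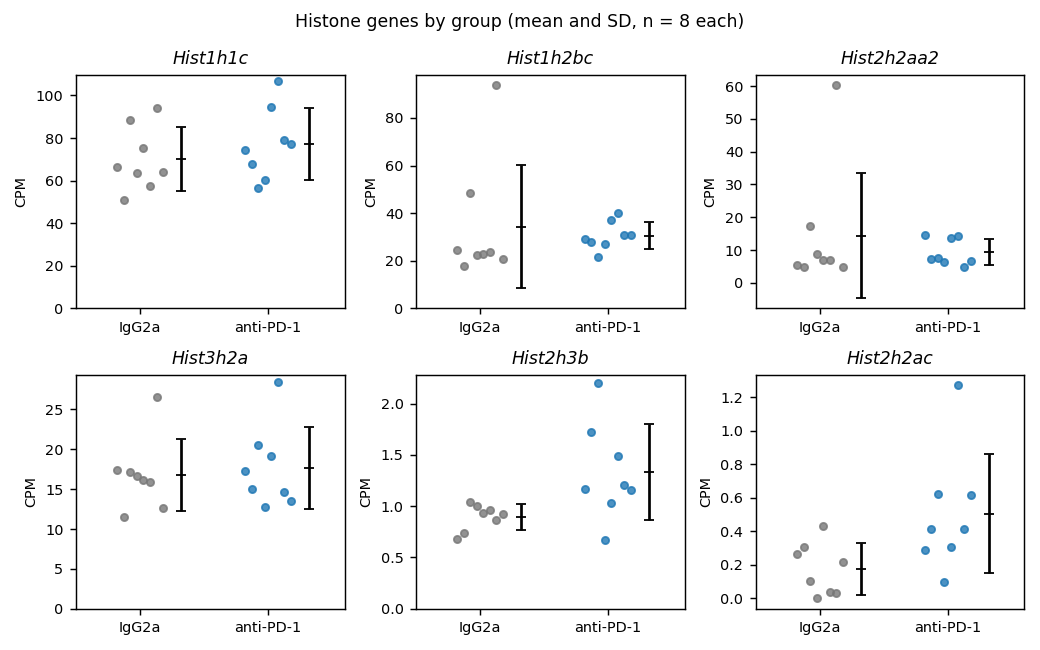
CPM of 6 histone genes in each tumour by group, with mean and SD (n = 8 each) beside the points. The highest points of Hist1h2bc and Hist2h2aa2, at 94.0 and 60.3 CPM, are the same IgG2a tumour, and Hist2h3b and Hist2h2ac have the smallest unadjusted p-values.

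The 2 members with an unadjusted p under 0.05 were both from the Hist2 cluster. Hist2h3b, an H3 gene, ranged from 0.673 to 2.21 CPM (median 1.19) under anti-PD-1 and from 0.678 to 1.04 (median 0.931) under IgG2a. The spread was wider under anti-PD-1, and 7 of 8 anti-PD-1 tumours were above the IgG2a median. The log2 fold change was 0.57 ± 0.24 (edgeR unadjusted p = 0.0290, adjusted p = 0.434). Hist2h2ac, an H2A gene, ranged from 0.0961 to 1.27 CPM (median 0.413) under anti-PD-1 and from 0 to 0.431 (median 0.159) under IgG2a. It averaged 22.8 reads, and 7 of 8 anti-PD-1 tumours were above the IgG2a median. Its highest tumour was anti-PD-1 replicate 6 (1.27 CPM, next 0.621). The log2 fold change was 1.52 ± 0.67 (edgeR unadjusted p = 0.0378, adjusted p = 0.434). Neither is a result after adjustment, and no window of Hist2h3b was unique to it. Both genes were picked by their p, so the counts of tumours above the IgG2a median add nothing to it.

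The next smallest p-values in each direction did not reach 0.05. Hist1h2bb, an H2B gene, had a log2 fold change of 0.85 ± 0.49, with its highest tumour, anti-PD-1 replicate 1, at 1.24 CPM. The H4 gene Hist1h4i had -0.85 ± 0.59 and the H3 gene Hist2h3c2 -0.56 ± 0.48. Hist2h3c2 was highest in IgG2a replicate 7 (4.82 CPM, others 0.192 to 1.69), and its estimate was -0.02 without it. Hist1h4i was high in IgG2a replicates 3 and 7 (7.04 and 8.20 TPM, against at most 2.78 in the others). Both estimates were above 0 when the 3 tumours that stood apart were left out together, at 0.10 for Hist1h4i and 0.01 for Hist2h3c2.

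Over the tested members, 36 estimates were above 0 and 11 below, with a median log2 fold change of 0.32, beside a median of -0.05 and 43.1% above 0 over all genes tested. The members share sequences, clusters and tumours, so they are not independent. Estimates above 0 numbered 4 of 5 for H1, 8 of 9 for H2A, 5 of 10 for H2B, 10 of 11 for H3 and 9 of 12 for H4. The median SE was 0.45 for members and 0.22 for all genes. The intervals therefore left room for changes of either sign in all but the 2 Hist2 members named above. Other named members with estimates above 0 included Hist1h3g (1.09 ± 0.69), Hist1h4a (0.70 ± 0.60), Hist4h4 (0.53 ± 0.35), Hist1h4j (0.48 ± 0.45), Hist1h2ap (0.45 ± 0.54), Hist1h3b (0.42 ± 0.57), Hist1h2ae (0.37 ± 0.34), Hist1h3e (0.33 ± 0.28), Hist1h4n (0.31 ± 0.33) and Hist1h4k (0.11 ± 0.33). Those with estimates below 0 included Hist1h4h (-0.54 ± 0.62), Hist1h2be (-0.19 ± 0.34) and Hist2h4 (-0.16 ± 0.35). None of them passed the test.

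**Figure D4:**
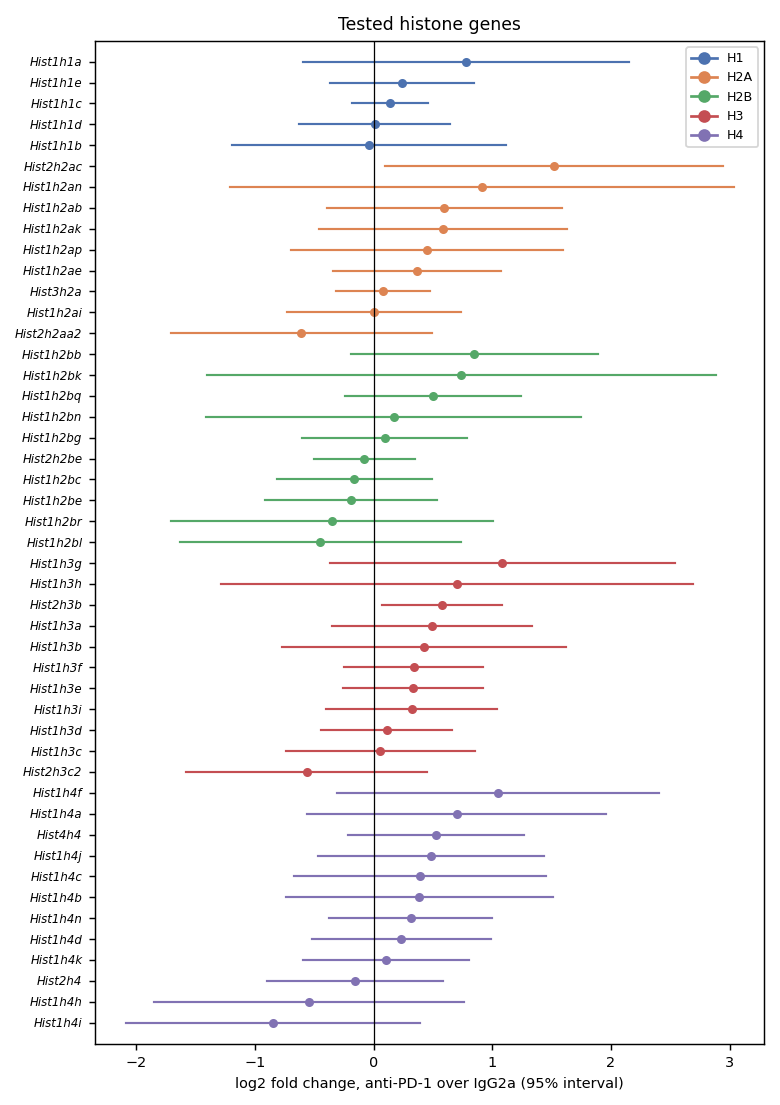
Log2 fold change of anti-PD-1 over IgG2a with its 95% interval for the 47 tested histone genes, coloured by class. Of the estimates 36 lie above 0, and the intervals of Hist2h3b and Hist2h2ac alone do not cross 0, before adjustment.

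Too low to test were 18 members, among them Hist1h2ac, Hist2h2aa1, Hist3h2ba and the testis genes. Of these, 2 had reads in a single group: Hist2h2aa1 in 2 anti-PD-1 tumours, and Hist2h3c1 in anti-PD-1 replicate 6 alone (0.827 TPM). Hist2h2aa1 has no unique window, 89.6% of its windows being shared with Hist2h2aa2. Hist2h3c1 has none either: 35.4% of its windows are shared with Hist2h3c2, and all of them with genes outside the histone set, among which Gm20634 overlaps it on the same strand. Hist1h4m reached 8.07 TPM in IgG2a replicate 7 and at most 2.21 TPM elsewhere.

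Histone mRNA is tied to S phase, so each gene's slope on the S phase score was fitted with group as a covariate. With all 16 tumours, 7 of 47 members had a slope past an adjusted p of 0.05, while 38% of 16124 genes did. Positive were 3 (17.1% of all genes) and negative 4 (20.8%). The positive slopes, in log2 CPM per unit of score, were 5.23 ± 1.25 (SE) for Hist1h2ap, 6.11 ± 1.69 for Hist1h3g and 4.13 ± 1.39 for Hist1h2bl. The negative slopes were -2.66 ± 0.47 for Hist2h2aa2, -1.52 ± 0.33 for Hist1h2bc, -1.91 ± 0.59 for Hist2h3c2 and -1.42 ± 0.48 for Hist1h2be. All 3 genes with positive slopes were at 0 reads in IgG2a replicate 7, and all 4 with negative slopes were highest there. Hist1h2ao, the near copy of Hist1h2ap, was highest in that tumour, so the slope of Hist1h2ap alone leaves out reads assigned to the copy.

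These slopes rested on IgG2a replicate 7. Without it, 0 of 49 members and 0% of 16263 genes had a slope past the threshold by edgeR, and at an unadjusted p under 0.05 there were 0 members and 10.3% of all genes. The slope of Hist1h2bc became 0.73 ± 1.13 and that of Hist1h2ap -0.07 ± 1.49. That of Hist1h3g was 5.98 ± 2.97. Hist1h2ae and Hist1h3b, whose slopes of 1.75 ± 0.70 and 3.85 ± 1.56 over 16 tumours did not pass, had -1.50 ± 1.54 and -1.94 ± 2.44 over 15. The S phase score spanned so little among the 15 that the median SE of a member's slope was 2.29, against 0.73 with all 16. A relation between these genes and S phase genes was therefore not detectable among the 15 tumours at this spread and depth.

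**Figure D5:**
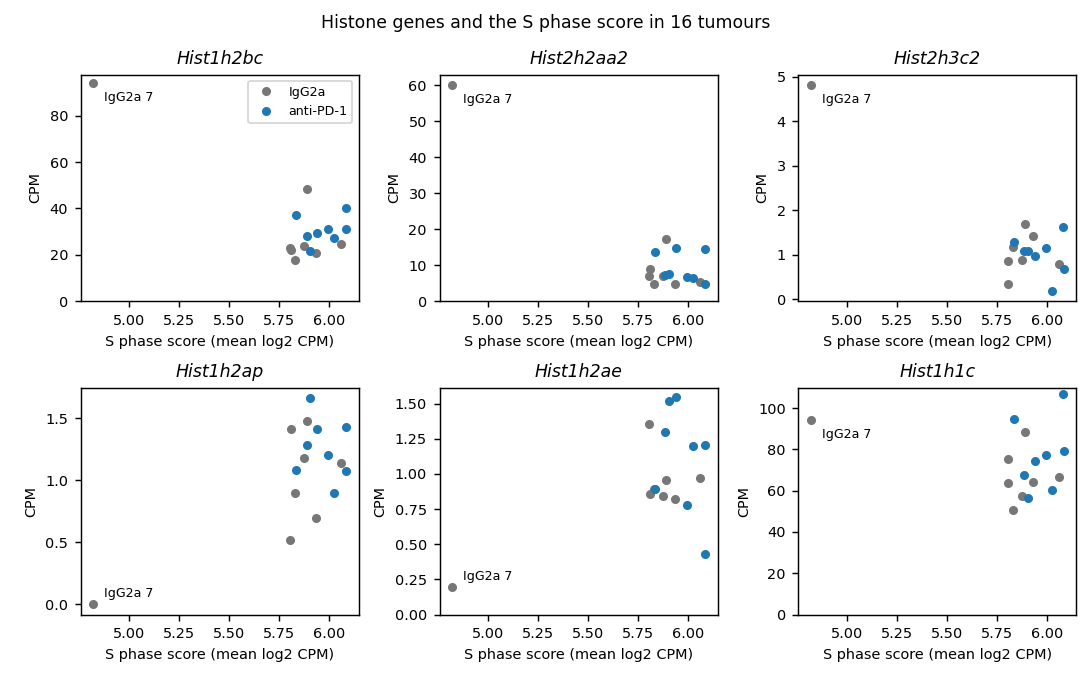
CPM of 6 histone genes against the S phase score (mean log2 CPM) in 16 tumours, by group. IgG2a replicate 7 lies alone at the left, with the highest Hist1h2bc, Hist2h2aa2 and Hist2h3c2 and the lowest Hist1h2ap and Hist1h2ae, and the other 15 form 1 cloud.

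Genes that make, process and hold histones were also compared between groups. Their mean level was 40.6 TPM for transcription and 3-prime processing, 23.8 for mRNA decay, 59.1 for chaperones and 314 for replacement histones. Single genes of these lists lay under 1 TPM. By edgeR 0 were called of 13 genes for histone gene transcription and 3-prime processing (7 estimates above 0, 6 below), of 6 for histone mRNA decay (3 and 3), of 12 histone chaperones (10 and 2), of 11 replacement histones (9 and 2), of 30 S phase genes (28 and 2) and of 24 G2 and M phase genes (21 and 3). The stem-loop binding gene Slbp was at 47.8 ± 5.46 TPM, above all but 2 members. It ranged from 53.9 to 114 CPM (median 60.5) under anti-PD-1 and from 44.1 to 65.1 (median 49.5) under IgG2a. The groups overlapped, the highest value being that of anti-PD-1 replicate 6, and the log2 fold change was 0.35 ± 0.15 (edgeR unadjusted p = 0.0301, adjusted p = 0.434).

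Npat, the histone gene transcription factor, was at 8.43 ± 2.86 TPM and differed by -0.07 ± 0.19 on the log2 scale. Its cofactor gene Casp8ap2 was at 7.03 ± 2.92 TPM (-0.10 ± 0.15). The U7 particle genes Lsm10 and Lsm11, which act in the cut after the stem-loop, were at 38.5 ± 8.86 and 8.18 ± 2.02 TPM (0.13 ± 0.12 and 0.01 ± 0.14). The chaperone gene Chaf1b, which places new H3 and H4 on copied DNA, was at 18.9 ± 4.30 TPM (0.17 ± 0.15). The 95% interval of each of these estimates crossed 0.

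Of the 11 replacement histone genes, 9 were higher in TPM than any replication-dependent gene. H2afz, an H2A form found near gene starts, was at 1301 ± 266 TPM, H3f3a and H3f3b, which encode H3.3, at 773 ± 68.1 and 615 ± 85.8 TPM, H1f0 at 143 ± 32.4 TPM and the DNA damage form H2afx at 99.5 ± 16.9 TPM. H2afz ranged from 284 to 774 CPM under anti-PD-1 (median 388) and from 178 to 479 under IgG2a (median 307). The highest was anti-PD-1 replicate 6 and the lowest IgG2a replicate 7, and the log2 fold change was 0.43 ± 0.20. The others differed by 0.18 ± 0.13 (H3f3a), 0.31 ± 0.15 (H3f3b), 0.18 ± 0.16 (H1f0) and 0.17 ± 0.13 (H2afx).

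Cell cycle genes gave the same picture. The S phase genes Rrm2, Pcna and Ccne2 differed by 0.26 ± 0.18, 0.18 ± 0.12 and 0.43 ± 0.18 on the log2 scale, and the proliferation gene Mki67 by -0.11 ± 0.10, none past the adjusted threshold. Of these 4 intervals, that of Ccne2 alone did not cross 0 (edgeR unadjusted p = 0.0308, adjusted p = 0.434). With all 16 tumours, slopes on the S phase score were positive past the threshold for 17.1% of all genes. This held for 11 of 12 chaperones and 23 of 24 G2 and M phase genes. It also held for 8 of 13 transcription and processing genes and 3 of 6 decay genes. Of 11 replacement histone genes, 4 had a positive and 2 a negative slope past the threshold. Without IgG2a replicate 7, 0 genes of each list passed. H2afx (0.88 ± 0.14), H2afz (1.02 ± 0.31) and Npat (0.95 ± 0.36) were among the genes that passed over 16 tumours, and Slbp (0.46 ± 0.25) was not. In IgG2a replicate 7 Rrm2 was at 38.3 CPM (94.1 to 143 in the other 15), while Pcna (174 CPM, others 124 to 240) and Mki67 (105 CPM, others 75.0 to 128) lay within the range of the others.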

How the data were processed

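The authors deposited 1 table per tumour, holding an estimated count and a TPM value for each transcript, per the file headers. Transcript length and effective length are other columns of the deposited tables. The submitters' processing notes name GRCm38, edgeR and limma. The quantifier, and which annotation it used, is not given in the sources used here. The protocols in the labels describe oligo-dT enrichment and libraries that keep no strand.

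Transcripts were matched to GENCODE vM21 (114200 of 115088), and each gene's estimated counts were added up and rounded. Genes passing filterByExpr (minimum count 10, minimum total 15) were scaled by TMM and tested with the robust quasi-likelihood test of edgeR 4.0.16 (R 4.3.3), adjusted by Benjamini-Hochberg across the genes tested (threshold 0.05). CPM values are TMM-scaled. The slope fit used the S phase score (prior count 2), with group as a covariate and S phase genes left out. The tests were checked on simulated counts. Alternatives were other scalings and filters, DESeq2 1.42.0, limma-voom (limma 3.58.1), a length offset, the range of animal numbers, and tumours left out.

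The histone members and all gene lists were chosen with earlier results of these data known. Named members were the 10 highest by mean TPM, the 3 per direction of smallest p between groups, the 4 per direction most and least alike the S phase score, and those with over 50% of reads on a transcript ending over 100 bases past the stem-loop. Named non-members were 15 genes of a fixed list. List genes that passed only in the slope fit are given as counts. Hist1h2bl and Hist2h2be were named after their values were seen. Promoters of 7 members had no single entry and were left out. No genome sequence was used here.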

Additional observations from a re-analysis of the deposited data

Results flagged for a closer look

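In 11 of 44 groups checked (22 tested members in 2 groups of 8), 1 tumour lay far from the other 7. The members checked were the named ones, some of them picked by p or by likeness to the S phase score. The count therefore cannot be set against the rate of about 1 in 20 groups that chance gives. IgG2a replicate 7 accounted for 5 of the 11. It was the high tumour for Hist1h2bc (93.95 CPM, next 48.3), Hist2h2aa2 (60.27, next 17.3), Hist3h2a (26.53, next 17.45) and Hist2h3c2 (4.817, next 1.685), and the low tumour for Hist1h2ae (0.1933 CPM, next 0.8183). Anti-PD-1 replicate 6 was the high tumour for 4 genes, namely Hist1h4h (3.426 CPM, next 1.1), Hist1h4n (3.41, next 1.879), Hist1h4j (1.411, next 0.7405) and Hist2h2ac (1.271, next 0.6211). IgG2a replicate 3 was high for Hist1h4k (1.452 CPM, next 0.7367), and anti-PD-1 replicate 1 for Hist1h2bb (1.244 CPM, next 0.5839). The first 3 tumours are those that stand apart in cell type markers or transcripts detected, and the part of that in these values was not tested.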

How the results depend on the processing

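No histone gene was called between the groups under any of the 29 alternatives run, which included leaving out each tumour in turn. DESeq2 called 4 genes in all, none of them a histone gene. The median log2 fold change of the members stayed above 0, from 0.1929 to 0.3888 with 1 tumour left out. The difference in summed TPM was -25.05, ran from -38.38 to 22.85 with 1 tumour left out, and was 2.75 in CPM.

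Of 37 named genes, 24 kept the sign of their fold change throughout. With limma-voom Hist1h2bc had 0.06076, and with quality weights it had 0.4015, Hist2h2aa2 0.2395, Hist1h4n -0.2992, Hist1h2be 0.2772 and Lsm11 -0.1327. With a length offset Lsm10 had -0.07292. Without the 3 tumours that stood apart, Hist1h2bc had 0.4037, Hist2h2aa2 0.4639, Hist1h4n -0.149, Hist1h4i 0.1022, Hist2h3c2 0.008863, Hist1h2be 0.4685, H1f0 -0.02659 and Lsm11 -0.1554. With 1 tumour left out the fold change ran from -0.258 to 0.2492 for Hist1h2bc, from -0.7416 to 0.2634 for Hist2h2aa2, from -0.001515 to 0.38 for Hist1h4k, from -0.05199 to 0.2056 for Hist3h2a, from -0.3395 to 0.08465 for Hist1h2be, from -0.3651 to 0.00195 for Hist2h4, from -0.1742 to 0.004232 for Npat and from -0.067 to 0.0669 for Lsm11.

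With 1 tumour left out, genes with a called S phase slope ran from 0 (without IgG2a replicate 7) to 7276, and members from 0 to 10. Both were 0 without those 3 tumours, where the slope was 0.2007 for Hist1h2bc, -0.4636 for Hist1h2ae, -0.3903 for Hist1h2ap, -3.085 for Hist1h3b, -0.4515 for Hist1h2bl and -0.2418 for Npat. With 1 tumour left out the slope ran from -1.689 to 0.725 for Hist1h2bc, from -1.501 to 1.915 for Hist1h2ae, from -0.07082 to 5.771 for Hist1h2ap, from -1.937 to 4.419 for Hist1h3b and from -0.8483 to 1.084 for Npat. The causes of these changes were not tested. Of the 65 members, 14 averaged under 10 reads and 45 between 10 and 100. The design holds no pairs, as the tumours came from separate mice that each had a single treatment. The labels give no replicate numbers, and those used here only follow the order of the samples.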
